A study of Homo sapiens with 12 samples.

Results

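The respiratory chain of the inner mitochondrial membrane is built from complexes I to IV, and most of their subunits are encoded by nuclear genes. The 49 genes described here are 27 subunits of complex I, 4 of complex II, 7 of complex III and 11 of complex IV. They were taken by name from a table of 34643 gene rows, of which 15419 passed the filter on low counts and were tested. All 49 passed that filter.

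The samples were LNCaP cells, an established human prostate cancer line that depends on androgen for growth. The cells were transduced with lentivirus that expressed a short hairpin RNA (shRNA) from the U6 promoter of a puromycin-selected vector, and the shRNA was either a scrambled control (shScramble) or one directed against TMEFF2 (shTMEFF2), the gene of a transmembrane protein made mainly in prostate and brain. About 2.5 weeks after transduction, with the shRNA present for 17 days, all cells were held for 24 h in medium with 10% charcoal-stripped serum to remove androgen. They then received either 10 nM dihydrotestosterone (DHT), the active androgen of prostate tissue, or 0.0001% ethanol for a further 24 h. The 4 groups, shScramble without DHT, shScramble with DHT, shTMEFF2 without DHT and shTMEFF2 with DHT, held 3 libraries each. The 3 repeats were separate treatments and extractions that came from only 2 transductions, so p-values measure the spread between treatments of the same transduced pools in part. No label says which repeat came from which transduction.

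Complex I takes electrons from NADH, complex II takes them from succinate, complex III passes them from ubiquinol to cytochrome c, and complex IV passes them from cytochrome c to oxygen. Complexes I, III and IV pump protons as they do so, and ATP synthase uses the proton gradient to make ATP. Complex II also belongs to the citric acid cycle and is the complex whose subunits are all nuclear-encoded, whereas the others also need subunits made from mitochondrial DNA. Core subunits include those that carry the flavin, iron-sulfur clusters or haems of a complex, and accessory subunits stabilise or help to assemble it. Normal prostate epithelium is known for secreting citrate in place of oxidising it, and for a turn towards oxidation in prostate cancer.

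The complex I genes were NDUFA1, NDUFA2, NDUFA3, NDUFA5, NDUFA6, NDUFA8, NDUFA9, NDUFA10, NDUFA13, NDUFB1, NDUFB3, NDUFB5, NDUFB6, NDUFB7, NDUFB8, NDUFB9, NDUFB10, NDUFC1, NDUFC2, NDUFS1, NDUFS3, NDUFS4, NDUFS6, NDUFS7, NDUFS8, NDUFV1 and NDUFV2. Complex II was covered by SDHA, SDHB, SDHC and SDHD. Complex III was represented by UQCRC1, UQCRC2, UQCRB, UQCRQ, UQCRH, UQCRFS1 and CYC1. The complex IV genes were COX4I1, COX5A, COX5B, COX6A1, COX6B1, COX6C, COX7A2, COX7B, COX7C, COX8A and NDUFA4, the last of which was named as a complex I gene but is a subunit of complex IV. Of the 49 genes, 12 encode core subunits and 37 accessory ones.

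The target of the shRNA was read first. TMEFF2 was 77.8, 73.8 and 103.2 TMM-scaled CPM (counts relative to the library total, adjusted by the trimmed mean of M-values) in the shScramble libraries without DHT, and 68.6, 39.3 and 81.7 CPM in the shTMEFF2 libraries without DHT. With DHT it was 173.3, 117.0 and 169.4 CPM in shScramble and 142.1, 90.1 and 114.5 CPM in shTMEFF2. The mean was lower with the targeting shRNA at both DHT levels, but the libraries of the lines overlapped, and the log2 differences of -0.43 and -0.41 did not pass edgeR's quasi-likelihood test (Benjamini-Hochberg adjusted p = 0.50 and 0.30). Taken by replicate number, each shTMEFF2 library was below the shScramble library of the same number at both DHT levels, but the labels do not pair them. The study reports from Western blots and mRNA levels that TMEFF2 was silenced in LNCaP cells, though not by every shRNA it tried. No label says which shRNA these libraries carry. The group names below are those of the labels, and without pairing the TMEFF2 reads do not tell the lines apart.

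Libraries held 19450866 to 22612046 counts (median 21194622). The 7 markers of luminal prostate cells read here were present in every library, among them HOXB13, a prostate homeobox factor, at 346 to 522 CPM, and their summed level ranged from 6124 to 6291 CPM in shScramble without DHT, 13150 to 14080 CPM in shScramble with DHT, 3806 to 4310 CPM in shTMEFF2 without DHT and 4789 to 5977 CPM in shTMEFF2 with DHT. The 12 markers of other cell types together reached 40.2 to 68.3 CPM. The basal keratin KRT5 was at 0 and the neuroendocrine CHGA and T cell CD3E were at or under 3 counts in all 12 libraries. Others were above 3 counts in every library. Among them were the endothelial VWF (11.8 to 28.3 CPM) and the fibroblast COL1A1 (11.9 to 30.4 CPM). The leukocyte markers PTPRC (3.17 to 7.76 CPM) and CD68 (3.17 to 8.83 CPM) and the neuroendocrine SYP (1.97 to 3.88 CPM) were too. These RNA levels are of bulk cultures, in which fewer cells with a transcript and less of it per cell cannot be told apart.

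The promoters of the subunits that passed a test in some comparison are printed here so that their letters can be read beside the values, together with that of NDUFB4, a complex I gene outside the 49 whose values are given at the end. Each run holds 250 bases before and 30 after the gene's start in RefSeq (GRCh38.p14), 5′ to 3′ on the gene's own strand, and capitals mark any match to the 5 motifs searched on both strands. The letters searched were GCGCANGCG for NRF1, CCGGAAG for ETS factors such as GABPA, AAGATGGCG for YY1, GGGCGG for SP1 and TCAAGGTCA for oestrogen-related receptors (ERR). Where the table gave several starts for a gene, the one nearest the start of the gene's representative (MANE Select) transcript is shown. The fifth called subunit, NDUFC2, had no promoter in the table used.
NDUFC1, chr4:139302448-139302727, minus strand: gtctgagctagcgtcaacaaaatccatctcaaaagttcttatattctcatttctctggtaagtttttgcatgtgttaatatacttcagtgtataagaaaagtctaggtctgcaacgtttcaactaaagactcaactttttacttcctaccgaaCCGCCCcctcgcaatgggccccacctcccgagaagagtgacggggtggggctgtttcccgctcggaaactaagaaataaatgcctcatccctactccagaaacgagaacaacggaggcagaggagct
NDUFB10, chr16:1959288-1959567, plus strand: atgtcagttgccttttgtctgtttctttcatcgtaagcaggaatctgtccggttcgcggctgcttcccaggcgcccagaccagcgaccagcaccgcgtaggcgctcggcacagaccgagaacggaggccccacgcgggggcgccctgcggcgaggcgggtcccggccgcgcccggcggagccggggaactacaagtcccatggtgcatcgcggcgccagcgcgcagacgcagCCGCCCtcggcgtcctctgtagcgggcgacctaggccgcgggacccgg
SDHD, chr11:112086623-112086902, plus strand: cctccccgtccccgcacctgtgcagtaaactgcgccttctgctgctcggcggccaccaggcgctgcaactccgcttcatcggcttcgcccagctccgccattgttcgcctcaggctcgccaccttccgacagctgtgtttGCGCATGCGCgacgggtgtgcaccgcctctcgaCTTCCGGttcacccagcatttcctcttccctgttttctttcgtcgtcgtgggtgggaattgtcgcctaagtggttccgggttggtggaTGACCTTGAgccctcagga
SDHA, chr5:218070-218349, plus strand: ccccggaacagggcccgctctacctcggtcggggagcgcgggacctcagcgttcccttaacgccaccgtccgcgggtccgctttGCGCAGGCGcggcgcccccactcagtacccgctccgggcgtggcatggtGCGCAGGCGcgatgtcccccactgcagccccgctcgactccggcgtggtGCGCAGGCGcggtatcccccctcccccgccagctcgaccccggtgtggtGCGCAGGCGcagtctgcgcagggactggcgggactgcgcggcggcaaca
NDUFB4, chr3:120596086-120596365, plus strand: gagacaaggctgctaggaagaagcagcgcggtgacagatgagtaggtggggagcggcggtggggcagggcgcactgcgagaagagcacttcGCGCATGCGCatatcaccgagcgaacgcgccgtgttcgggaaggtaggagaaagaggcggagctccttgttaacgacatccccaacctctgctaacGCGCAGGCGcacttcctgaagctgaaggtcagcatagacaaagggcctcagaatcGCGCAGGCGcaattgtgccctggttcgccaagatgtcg

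The SDHA run holds the NRF1 letters at 4 places, each starting 49 bases after the one before, at 166, 117, 68 and 19 bases before the start. In SDHD the capitals are an NRF1 match that reads the same on both strands, an ETS match 77 bases before the start and, from 11 bases after it, the ERR letters on the opposite strand. NDUFC1 and NDUFB10 hold 1 SP1 match each. The NDUFB4 run has NRF1 letters at 3 places, one of them readable on both strands. A match of letters is a description of the sequence and was not tested as a binding site.

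Promoters in the RefSeq table, which run to 50 bases after the start, matched 41 of the 49 subunits by symbol. NRF1 letters were found in 11 of the 41 (26.8%), against 9.02% of all 27305 genes with a promoter in the table and 16.1% of the 11010 that were tested here. ETS letters were in 14 (34.1%, against 12.2% and 20.9%) and YY1 letters in 7 (17.1%, against 2.14% and 4.31%), and the ETS and YY1 letters can share AAG. At least 1 of these 3 motifs was in 26 of the 41. That count was not made for the other genes, so it has no background to be read against. SP1 letters were common in every set, in 26 subunits (63.4%) against 48.3% and 74.7%. The ERR letters were in SDHD alone of the 41 (2.44%, against 0.432% and 0.291%).

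Levels per length were compared over all 12 libraries, as TMM-scaled CPM divided by the median length in kb of the gene's protein-coding transcripts in GENCODE v44. The highest level was that of COX7C, a small membrane subunit of complex IV, at 579 CPM per kb, with 540 to 637 CPM per kb over the libraries. UQCRC2, a scaffold subunit of complex III, followed at 556 CPM per kb and SDHC, one of the membrane anchors of complex II, at 532 CPM per kb. The library ranges of these 3 overlapped, so their order is not resolved, and it depends on the length used. With the longest transcript UQCRH, a small complex III subunit, was first at 498 CPM per kb, COX7C came to place 4 at 230.0 CPM per kb, SDHC to place 9 at 187 CPM per kb and UQCRC2 to place 11 at 170.1 CPM per kb. The lowest level was that of NDUFA3, a small accessory subunit of complex I, at 26.2 CPM per kb (22.9 to 30.9), and next came NDUFA5 at 29.4 CPM per kb (25.7 to 34.4), which overlapped it.

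Within each complex the level per length spanned a several-fold range. In complex I it ran from NDUFA3 up to 272 CPM per kb for NDUFV1, the flavin-binding subunit that receives electrons from NADH. In complex II it ran from 53.5 CPM per kb for SDHB, the iron-sulfur subunit, to SDHC. In complex III the lowest was UQCRFS1, the Rieske iron-sulfur protein, at 49.1 CPM per kb, and the highest UQCRC2. In complex IV the lowest was COX5B, a zinc-binding subunit, at 114.6 CPM per kb, and the highest COX7C. These extremes are for the median length. With the longest transcript the highest became NDUFV2 (224 CPM per kb) in complex I, UQCRH in complex III and COX6A1 (384 CPM per kb) in complex IV, and the lowest became UQCRB (30.4 CPM per kb) in complex III and COX7B (51.8 CPM per kb) in complex IV, whereas NDUFA3, SDHB and SDHC kept their places as lowest of complex I and as lowest and highest of complex II. Medians were 95.1 CPM per kb for complex I, 96.3 for complex II, 271 for complex III and 299 for complex IV. With the longest transcript as the length these medians became 64.9, 67.3, 109 and 186 CPM per kb, so complex IV remained highest and complexes I and II lowest, while single genes moved far. UQCRB moved from place 5 to place 41 of 49 because its longest transcript has 8459 bases, whereas NDUFA3 was last under every length used. The MANE Select transcript was a further length, not planned beforehand. With it COX7C was first, SDHC came to place 13 and UQCRC2 to place 15. In complex II SDHA (55.0 CPM per kb) was then the lowest, below SDHB (59.5 CPM per kb).

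**Figure D1:**
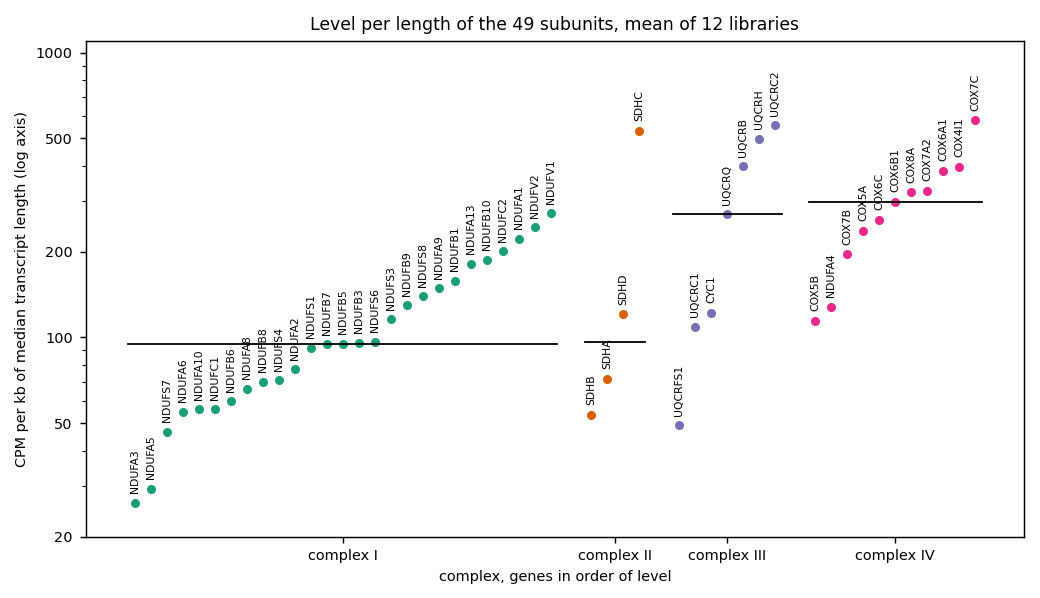
Level per length of each of the 49 subunits (y axis, TMM-scaled CPM per kb of median transcript length, log scale, mean of 12 libraries), grouped by complex and ordered by level within it, with a horizontal line at each complex's median. Complexes III and IV sit at medians of 271 and 299 CPM per kb and complexes I and II at 95.1 and 96.3 CPM per kb, with NDUFA3 lowest and, at this length, COX7C highest.

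The summed level of the 49 subunits was nearly the same in every library, from 6078 to 6666 CPM, a ratio of 1.097 between the highest and the lowest. In shScramble it was 6417 ± 304 CPM without DHT (SD, n = 3) and 6412 ± 103 CPM with it. In shTMEFF2 it was 6467 ± 184 CPM without DHT and 6444 ± 43.1 CPM with it. The group means differed by less than the SD of the shScramble libraries without DHT, and all 4 groups overlapped. By complex, the highest library exceeded the lowest 1.07-fold for complex I, 1.12-fold for complexes III and IV and 1.13-fold for complex II. Some groups stood apart within a complex, which is given as a description with no test. Complex III with DHT summed to 1427 to 1458 CPM in shScramble and 1498.5 to 1528 CPM in shTMEFF2. Complex II in shScramble summed to 556 to 593 CPM without DHT and 527 to 550.0 CPM with it, and complex IV in shTMEFF2 to 2073 to 2196 CPM without DHT and 2040 to 2052 CPM with it. The other groups that differ only in DHT or only in the shRNA overlapped in each complex.

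The subunits were also steady one by one. The median SD between replicates of a group was 0.082 on the log2 scale for the 49, against 0.156 for all tested genes and 0.117 for the 9641 tested genes whose mean CPM lay in the range of the subunits. The highest library was less than 1.5 times the lowest for 48 of the 49, against 37.4% of all tested genes and 54.8% of those in that range. The exception was NDUFC1, at 1.61-fold. The low end of the range is the mean of NDUFA3 (9.95 CPM), and the next lowest subunit was NDUFS4 (43.4 CPM). Genes less abundant than the other subunits thus enter that set, which is not matched in abundance gene by gene. NDUFB9, an accessory subunit of the membrane arm of complex I, had the smallest spread between replicates (SD 0.042), with 88.6 to 104.9 CPM over the 12 libraries. NDUFS7, which carries the last iron-sulfur cluster before ubiquinone, had the largest (SD 0.193), with 41.1 to 57.6 CPM.

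**Figure D2:**
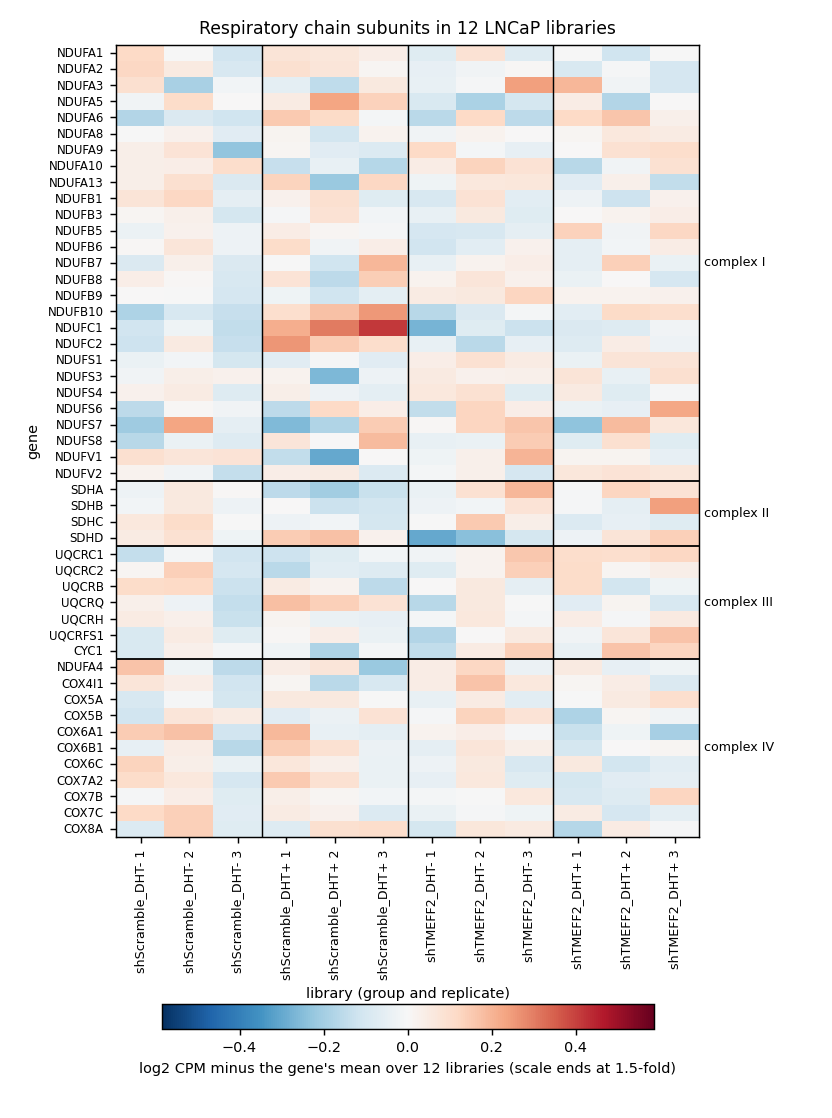
Heat map of the 49 subunits (rows, by complex) in the 12 libraries (columns, by group and replicate), coloured by log2 CPM minus the gene's mean over the libraries, on a scale that ends at 1.5-fold in each direction. Most cells are pale, and the darkest run is NDUFC1 in the 3 shScramble libraries with DHT, at 52.0 to 59.8 CPM against 37.2 to 44.3 CPM in the other 9.

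DHT in shScramble cells raised 3 of the 49 subunits and lowered none, at an adjusted p of at most 0.05, which is what a call means below. All 3 were accessory subunits of complex I: NDUFC1 and NDUFC2, which lie together in its membrane arm, and NDUFB10, a membrane-arm subunit held by disulfide bonds. Of all tested genes 14.4% were called higher and 12.6% lower, so the share of the subunits (6.12% higher) was below the background in both directions. At the further limit of 1.5-fold in either direction none of the 49 was called, against 11.9% of all genes. With scaling by library size alone, which moved the median of all genes to -0.08, 2 subunits were called higher and 4 lower. A filter at a mean over 5 CPM gave 3 higher and 3 lower, and a term for replicate number gave 4 higher and 2 lower. DESeq2 called 4 higher and 1 lower.

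NDUFC1 was 41.5, 44.1 and 40.6 CPM in shScramble without DHT and 52.0, 55.5 and 59.8 CPM with DHT. The libraries with DHT were all above those without. Its log2 fold change was 0.41 ± 0.07 (SE), a 1.33-fold rise with an adjusted p of 0.00136 in edgeR's quasi-likelihood test. NDUFB10 was 107.2, 113.7 and 110.3 CPM without DHT and 129.7, 136.7 and 144.7 CPM with it, again without overlap. It rose by 0.31 ± 0.07 on the log2 scale, 1.24-fold (edgeR adjusted p = 0.00453).

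NDUFC2 was 103.2, 116.7 and 102.3 CPM without DHT and 134.3, 124.7 and 120.6 CPM with it, a rise of 0.24 ± 0.07 on the log2 scale (edgeR adjusted p = 0.0248). This call was lost when shScramble replicate 1 or 3 without DHT, or replicate 1 with DHT, was left out, and the adjusted p over all 22 alternatives ran from 0.00874 to 0.101. NDUFC1 overlaps MGARP on its own strand and NAA15 on the other, and NDUFC2 overlaps the NDUFC2-KCTD14 readthrough gene and THRSP. The sources used here do not say whether the library kit kept strand, and the share of reads from the overlapping genes was not tested.

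The lowest values with DHT in shScramble were those of NDUFV1, NDUFA10, an accessory subunit of complex I, and SDHA, the flavoprotein of complex II that oxidises succinate. NDUFV1 was 203.8, 200.4 and 201.6 CPM without DHT and 173.0, 155.1 and 191.3 CPM with it. The libraries did not overlap, but its log2 fold change of -0.22 ± 0.08 lay just outside the threshold (edgeR adjusted p = 0.0506), and 7 of the 22 alternatives called it. NDUFA10 (-0.17, adjusted p = 0.0842) and SDHA (-0.17, adjusted p = 0.0727) did not pass either in edgeR's test (each called by 3 alternatives). In all, the libraries with DHT were entirely higher for 7 subunits (14.3%, against 21.3% of all tested genes) and entirely lower for 4 (8.16%, against 20.5%), while those of the other 38 overlapped.

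The other complexes showed no call with DHT in shScramble. The median log2 fold change was 0.03 over complex I, -0.09 over complex II, -0.01 over complex III and -0.01 over complex IV, and 0.01 over the 49, against -0.01 over all tested genes. In complex II, 3 of the 4 estimates were negative. In complex IV no gene had an unadjusted p under 0.05, and the estimates ran from -0.08 to 0.12.

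DHT in shTMEFF2 cells raised 1 of the 49 subunits and lowered none, where 7.84% of all tested genes were called higher and 5.21% lower. The subunit was SDHD, the smaller membrane anchor of complex II. It was 86.2, 89.6 and 98.8 CPM without DHT and 104.1, 111.7 and 117.0 CPM with it, so that the libraries did not overlap. Its log2 fold change was 0.28 ± 0.07 (1.21-fold, edgeR adjusted p = 0.0235). In shScramble the gene was 109.9, 113.0 and 104.4 CPM without DHT and 117.5, 119.5 and 108.0 CPM with it, with overlap and a log2 fold change of 0.08. The level that stood apart was thus the one in shTMEFF2 without DHT. The call was lost without shTMEFF2 replicate 1 or 2 without DHT, or replicate 2 or 3 with DHT, and the adjusted p over the 22 alternatives ran from 0.00253 to 0.0951.

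No subunit reached 1.5-fold with DHT in shTMEFF2, against 4.88% of all genes called at that limit. Next below SDHD came NDUFA6, an accessory subunit of the matrix arm (log2 fold change 0.16, adjusted p = 0.219), and NDUFB5 (0.16, adjusted p = 0.0948), both of complex I. At the other end lay COX6A1 (-0.13, adjusted p = 0.362) and COX5B (-0.13, adjusted p = 0.302) of complex IV and SDHC (-0.13, adjusted p = 0.154), none past the test in edgeR. Of the 11 complex IV estimates 10 were negative, with a median of -0.05, but none had an unadjusted p under 0.05. The 3 subunits called in shScramble had smaller estimates here: 0.10 for NDUFC1, 0.14 for NDUFB10 and 0.07 for NDUFC2.

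**Figure D3:**
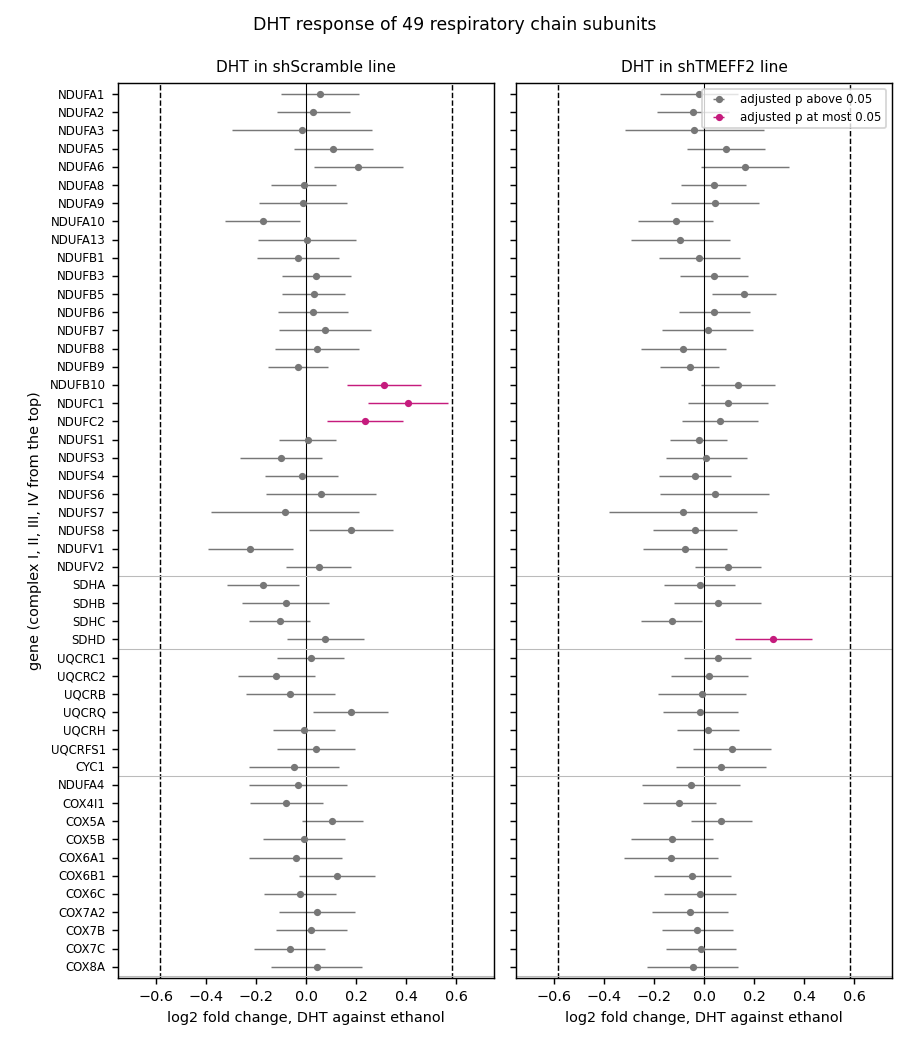
Log2 fold change with DHT (x axis, point and 95% interval) of each of the 49 subunits (y axis, complexes I to IV from the top) in the shScramble line (left) and the shTMEFF2 line (right), with dashed lines at 1.5-fold and called genes in magenta. Only NDUFB10, NDUFC1 and NDUFC2 (left) and SDHD (right) are called, and every interval lies between the dashed lines.

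Within these libraries the estimates were precise enough to bound the size of a change. The intervals are per gene, with no adjustment for their number. Like the p-values, they measure in part the spread between treatments of the same transduced pools. In all 5 comparisons the 95% interval of each of the 49 subunits lay inside 1.5-fold in both directions. The interval that reached farthest was that of NDUFC1 with DHT in shScramble, up to 0.57 on the log2 scale, where 1.5-fold is 0.58. The share of all tested genes with an interval inside these bounds was 51.1% for DHT in shScramble, 57.5% for DHT in shTMEFF2, 64.7% and 56.2% between the lines without and with DHT, and 46.5% for the difference of the DHT responses.

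Between the lines without DHT no subunit was called by edgeR's quasi-likelihood test, and few genes were called at all (0.623% of tested genes higher and 0.493% lower in shTMEFF2, and 0.571% with at least 1.5-fold). At an unadjusted p under 0.05 there were 2 subunits. SDHD was the lowest, at a log2 difference of -0.25 ± 0.07 (adjusted p = 0.123), and each of its 3 shTMEFF2 libraries lay below each shScramble library. DESeq2 called SDHD here, with an adjusted p of 0.0338. The shTMEFF2 libraries without DHT also enter the DHT response of shTMEFF2, so the SDHD values of these comparisons are not separate evidence. In all, the shTMEFF2 libraries were entirely lower for 3 subunits (6.12%, against 9.18% of all tested genes) and entirely higher for 2 (4.08%, against 9.35%). UQCRC1, a scaffold subunit of complex III, was the highest at 0.14 (adjusted p = 0.335). NDUFS8 (0.11), NDUFS1 (0.11), NDUFA5 (-0.16) and COX7C (-0.09) made up the rest of the 3 highest and 3 lowest, with adjusted p-values from 0.374 to 0.619.

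With DHT, shTMEFF2 cells had less NDUFC1 and more SDHA than shScramble cells, 1 subunit called in each direction. Of all tested genes 6.93% were called higher and 9.09% lower in shTMEFF2, and 6.77% with at least 1.5-fold, a limit that no subunit reached. With scaling by library size alone 3 subunits were called higher and 1 lower. NDUFC1 was 42.4, 42.6 and 44.3 CPM in shTMEFF2 with DHT, below all 3 shScramble libraries with DHT given above, with a log2 difference of -0.37 ± 0.07 (edgeR adjusted p = 0.0044). SDHA was 132.9, 128.5 and 135.2 CPM in shScramble with DHT and 147.2, 161.2 and 156.4 CPM in shTMEFF2 with DHT, without overlap. The SDHA difference was 0.23 ± 0.07 on the log2 scale (edgeR adjusted p = 0.0325), and the call was lost when any 1 of the 3 shScramble libraries with DHT, or shTMEFF2 replicate 2 or 3 with DHT, was left out (adjusted p from 0.00713 to 0.0816 over the alternatives). SDHA also has copies elsewhere in the genome: rows of its pseudogenes held counts equal to 23.6% of its own, most of them in SDHAP1, so reads may be split between them and its level is uncertain. The shScramble libraries with DHT enter both this comparison and the DHT response of shScramble, so the NDUFC1 values of these comparisons are not separate evidence.

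Other estimates between the lines with DHT did not pass the test. UQCRC1 was 159.0, 164.8 and 171.4 CPM in shScramble and 185.8, 185.4 and 188.4 CPM in shTMEFF2, with a log2 difference of 0.18 (edgeR adjusted p = 0.0709), and 5 of 22 alternatives called it. CYC1, the haem subunit cytochrome c1 of complex III, was at 0.16 (adjusted p = 0.237). NDUFC2 (-0.19, adjusted p = 0.0876) and UQCRQ, a small complex III subunit (-0.18, adjusted p = 0.0948), lay at the low end. In complex III 6 of 7 estimates were positive and in complex IV 8 of 11 negative, with medians of 0.07 and -0.06 on the log2 scale. The 12 core subunits had a median of 0.09 and the 37 accessory ones -0.02, against 0.00 over all tested genes.

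The difference of the DHT responses, shTMEFF2 minus shScramble, was called for none of the 49 by edgeR's quasi-likelihood test or by any of the 21 alternatives, DESeq2 included, where 1.65% of tested genes were called with a higher and 3.29% with a lower response in shTMEFF2 (3.23% with at least 1.5-fold). At an unadjusted p under 0.05 there was 1 subunit, NDUFC1, with a difference of -0.31 ± 0.10 on the log2 scale (95% interval -0.54 to -0.08, adjusted p = 0.124). DHT thus passed the test for NDUFC1 in one line and not in the other, but the responses were not shown to differ. NDUFS8, an iron-sulfur subunit (-0.22), and UQCRQ (-0.19) followed at the low end, and SDHD (0.20), SDHA (0.15) and NDUFV1 (0.15) lay at the high end, with adjusted p-values from 0.334 to 0.567.

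**Figure D4:**
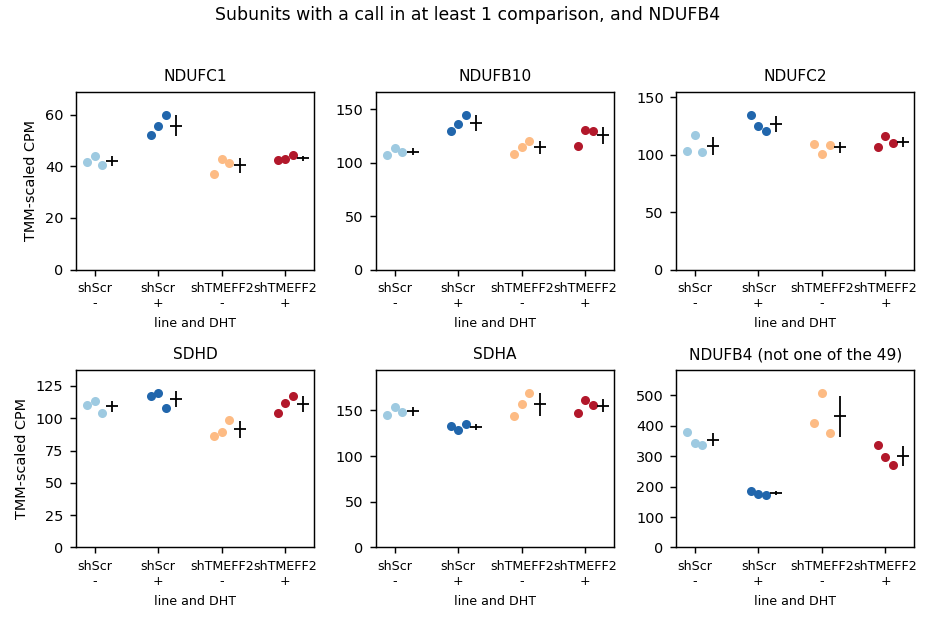
TMM-scaled CPM (y axis, from 0) of the 5 subunits with a call and of NDUFB4, a complex I gene outside the 49, in each library (points) with the mean and SD of each group of 3 (black). shScr is shScramble, and minus and plus mark ethanol and DHT. NDUFC1 is at 52.0 to 59.8 CPM in shScramble with DHT and at most 44.3 CPM elsewhere, and NDUFB4 is at 174 to 186 CPM in shScramble with DHT and at least 270 CPM elsewhere.

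Other genes of the chain were read from gene lists. Of 13 further complex I to IV subunits or chain-associated genes, NDUFB4, an accessory subunit of the membrane arm of complex I, had the largest changes. It was 378.2, 344.8 and 338.3 CPM in shScramble without DHT and 185.7, 176.0 and 173.6 CPM with it, a log2 fold change of -0.99 ± 0.11 (edgeR adjusted p = 2.41e-05). In shTMEFF2 it was 407.9, 507.9 and 376.8 CPM without DHT and 336.0, 298.8 and 270.1 CPM with it (-0.51 ± 0.10, edgeR adjusted p = 0.00751). With DHT it was higher in shTMEFF2 than in shScramble by 0.76 ± 0.11 on the log2 scale (edgeR adjusted p = 0.000374). COX7A2L, which joins complexes III and IV into supercomplexes, rose with DHT in shScramble by 0.17 (edgeR adjusted p = 0.0283) and was lower in shTMEFF2 with DHT by 0.20 on the log2 scale (edgeR adjusted p = 0.0173). The first COX7A2L call was lost in 9 of the 22 alternatives, among them those without shScramble replicate 1 or 3 without DHT or replicate 1 or 2 with DHT (adjusted p from 0.00877 to 0.163). The second was also lost in 9, among them those without shScramble replicate 1 or 2 or any 1 shTMEFF2 library with DHT (adjusted p from 0.00294 to 0.0895). None of the other 11 genes of that list was called by edgeR in any of the 5 comparisons. DESeq2 called 1 of them, NDUFS5, an accessory subunit of complex I, higher in shTMEFF2 without DHT (adjusted p = 0.034, against 0.131 in edgeR) and with DHT (0.0188, against 0.0567), and it also called the difference of the DHT responses of NDUFB4 (0.0261, against 0.0965).

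NDUFA4 is the form of its subunit used in most tissues, and NDUFA4L2 is a paralog known to be induced by hypoxia. NDUFA4 was 223.8 to 291.9 CPM over the 12 libraries, with no call. NDUFA4L2 was 4.62, 4.88 and 45.4 CPM in shScramble without DHT, 6.11, 9.76 and 54.2 CPM in shScramble with DHT, 18.8, 3.01 and 8.82 CPM in shTMEFF2 without DHT and 8.57, 2.19 and 51.7 CPM in shTMEFF2 with DHT, in the order of replicates 1 to 3. In 3 of the groups replicate 3 stood far above the others, and in shTMEFF2 without DHT replicate 1 was the highest. No difference between groups was called.

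Assembly factors insert cofactors and join subunits. With DHT in shScramble 14 of 45 rose (31.1%, against 14.4% of all genes) and 3 fell (6.67%, against 12.6%). The 3 that fell, named after their values were seen, were NDUFAF4 (-0.69, edgeR adjusted p = 0.0015), UQCC1 (-0.57, adjusted p = 0.00142) and NDUFAF6 (-0.52, adjusted p = 0.00286), factors for complexes I and III. The 3 with the smallest p were COA4 (log2 fold change 0.32 ± 0.05, edgeR adjusted p = 0.000705), COX17, the copper chaperone of complex IV (0.45 ± 0.08, adjusted p = 0.0013), and COX18, which inserts a mitochondrial-encoded subunit of complex IV (0.52 ± 0.09, adjusted p = 0.0014). In shTMEFF2 1 of 45 was called (2.22%, against 7.84% of all genes called higher), UQCC2, a factor for complex III (0.25 ± 0.08, edgeR adjusted p = 0.0484), and this call was lost in 14 of the 22 alternatives, 10 of them with 1 library left out (adjusted p from 0.0134 to 0.173). With DHT, COX17 was lower in shTMEFF2 than in shScramble by 0.47 on the log2 scale (edgeR adjusted p = 0.00175) and COA3 by 0.23 (adjusted p = 0.048), whereas NDUFAF4, an assembly factor of complex I, was higher by 0.50 (adjusted p = 0.018). These were 2 lower (4.44%, against 9.09% of all genes) and 1 higher (2.22%, against 6.93%). The COA3 call held in only 3 of the 22 alternatives and was lost in 11 of the 12 fits with 1 library left out (adjusted p from 0.0384 to 0.18 over the alternatives). The NDUFAF4 call was lost without shScramble replicate 3 or shTMEFF2 replicate 2 with DHT, and with the second column alone. The difference of the DHT responses was called for none of the 45 by edgeR's quasi-likelihood test, with 7 at an unadjusted p under 0.05, and for 1 by DESeq2.

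Among 15 genes of the mobile carriers and ubiquinone synthesis, 4 rose (26.7%, against 14.4% of all genes) and 2 fell (13.3%, against 12.6%) with DHT in shScramble, and 3 rose (20%, against 7.84%) and 1 fell (6.67%, against 5.21%) in shTMEFF2. In shScramble the 4 were COQ8A, COQ8B, PDSS1 and CYCS and the 2 were ETFB and ETFDH, of which CYCS, PDSS1 and ETFDH were named after their values were seen. CYCS, which encodes cytochrome c, was 351 ± 14.6 CPM without and 409 ± 23.4 CPM with DHT in shScramble (SD, n = 3), and 316 to 328 CPM without and 380.0 to 410.2 CPM with DHT in shTMEFF2. COQ8A, a kinase-like protein needed for ubiquinone synthesis, rose in shScramble by 0.45 (edgeR adjusted p = 0.00169) and was lower in shTMEFF2 with DHT by 0.42 on the log2 scale (edgeR adjusted p = 0.00462). COQ8B rose in shScramble by 0.47 (adjusted p = 0.00385), and ETFB, a subunit of the electron transfer flavoprotein, fell by 0.36 on the log2 scale in shScramble (adjusted p = 0.0102) and by 0.35 in shTMEFF2 (adjusted p = 0.0205) in edgeR's test. In shTMEFF2 the calls were CYCS (0.31, adjusted p = 0.00486), PDSS1 (0.56, adjusted p = 0.0155) and COQ3 (0.32, adjusted p = 0.0491), the last 2 being enzymes of ubiquinone synthesis, beside ETFB. The COQ3 call was lost in 14 of the 22 alternatives, 9 of them with 1 library left out (adjusted p from 0.0222 to 0.248). With 1 library left out, the calls in shTMEFF2 were also lost for PDSS1 (replicate 1 or 2 without or 3 with DHT; adjusted p up to 0.0695) and ETFB (replicate 2 or 3 without or 1 or 3 with DHT; up to 0.0899), and those in shScramble for CYCS (replicate 1 without or 1 or 2 with DHT; up to 0.0681), PDSS1 (replicate 1 or 3 without or 2 with DHT; up to 0.0837) and ETFDH (replicate 2 with DHT; up to 0.272). The upper adjusted p-values are over all 22 alternatives. DESeq2 also called COQ3 higher in shTMEFF2 than in shScramble with DHT (adjusted p = 0.0413, against 0.059 in edgeR). For COQ8B it called the difference of the DHT responses (-0.46, adjusted p = 0.0362, against 0.0802 in edgeR).

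Of 18 ATP synthase genes only ATPIF1, the inhibitor of the enzyme, was called by edgeR, and only with DHT in shScramble (-0.27 ± 0.09, adjusted p = 0.0322; 5.56% of the list, against 12.6% of all genes called lower). That call was lost without shScramble replicate 1 or 2 without DHT or replicate 1 or 3 with DHT, and the adjusted p over the alternatives ran from 0.00611 to 0.122. DESeq2 also called ATP5G1, a membrane-ring subunit, higher with DHT in shScramble (adjusted p = 0.0362, against 0.0559 in edgeR), and ATP5O, a stalk subunit, higher in shTMEFF2 with DHT (0.0122, against 0.0522). Of 14 regulators of mitochondrial biogenesis and mitochondrial DNA 3 rose with DHT in shScramble (21.4%, against 14.4% of all genes) and 4 in shTMEFF2 (28.6%, against 7.84%) in edgeR's test, and none fell. In shScramble they were TFB2M, a mitochondrial transcription factor (0.37, edgeR adjusted p = 0.00108), the coactivator PPRC1 (0.51, adjusted p = 0.00205) and TWNK, the mitochondrial DNA helicase (0.36, adjusted p = 0.0324). In shTMEFF2 they were TFAM, which packages and transcribes mitochondrial DNA (0.41, edgeR adjusted p = 0.00299), TWNK (0.52, adjusted p = 0.0108), the coactivator PPARGC1B (0.56, adjusted p = 0.014) and TFB2M (0.26, adjusted p = 0.0199). The TWNK call in shScramble was lost in 7 of the 22 alternatives, among them those without replicate 1 or 3 of either shScramble group (adjusted p from 0.0158 to 0.153). In shTMEFF2 calls were lost for TWNK without replicate 3 with DHT (adjusted p up to 0.239 over the 22 alternatives), for PPARGC1B without replicate 2 without or 3 with DHT (up to 0.0768 over them) and for TFB2M without replicate 1 or 2 without or 3 with DHT (up to 0.0907 over them). TFAM was 147.2, 146.7 and 138.4 CPM without and 149.8, 162.0 and 146.8 CPM with DHT in shScramble, and 124.0, 135.3 and 141.0 CPM without and 165.3, 178.2 and 187.6 CPM with DHT in shTMEFF2. The difference of its DHT responses did not pass edgeR's test (0.32 ± 0.10 on the log2 scale, adjusted p = 0.0843) and was called by DESeq2 (adjusted p = 0.0256). DESeq2 also called TFAM higher in shTMEFF2 than in shScramble with DHT (adjusted p = 0.0212, against 0.0549 in edgeR). PPRC1 was called higher with DHT in shTMEFF2 by DESeq2 too (adjusted p = 0.0283, against 0.072 in edgeR).

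Of the factors whose letters were counted in the promoters, NRF1, GABPA, YY1 and ESRRA were read, and neither edgeR nor DESeq2 called any of these 4 in any of the 5 comparisons. NRF1 was 13.7 to 19.3 CPM over the 12 libraries, GABPA 42.2 to 48.4 CPM, YY1 103.0 to 124.1 CPM and ESRRA, an oestrogen-related receptor, 50.7 to 67.1 CPM. PPARGC1A, a coactivator of these factors, was at most 2.42 CPM in any library.

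**Figure D5:**
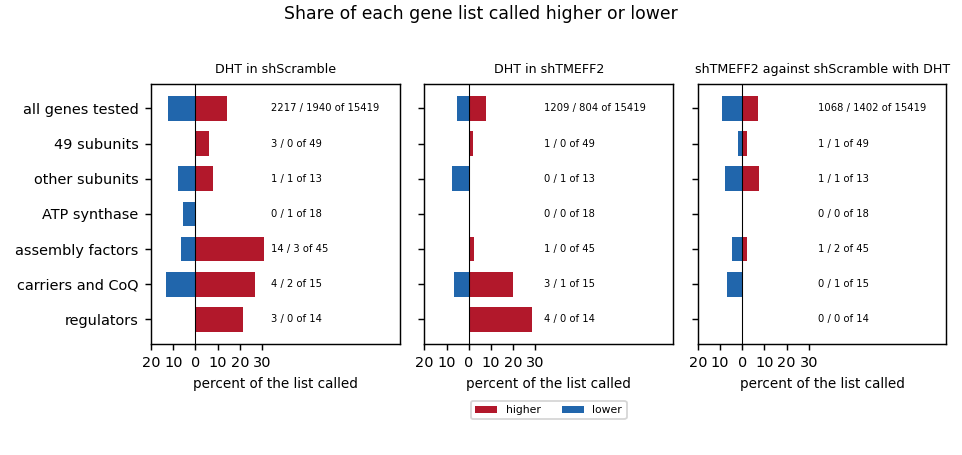
Percent of each gene list called higher (red, to the right) and lower (blue, to the left) at an adjusted p of at most 0.05, for DHT in shScramble, DHT in shTMEFF2 and shTMEFF2 against shScramble with DHT, with the numbers called higher and lower of those tested. The 49 subunits reach 6.12% at most, and the assembly factors 31.1% with DHT in shScramble. These shares count genes past a threshold. The median log2 fold change of the assembly factors with DHT was 0.096 in shScramble and 0.093 in shTMEFF2.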

How the data were processed

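RNA of 12 LNCaP libraries was sequenced as 75 bp read pairs. Per the study's methods and the submitters' processing notes, the authors removed contaminating reads, among them reads of mitochondrial DNA and ribosomal RNA, trimmed the rest with Trimmomatic (reads of at least 15 bp kept) and ran kallisto 0.42.3 against GRCh38 transcripts. The authors deposited estimated counts per gene, scaled by transcript length and library size, so values need not be whole and a shift between a gene's transcripts moves them little. The deposited estimated counts come in 2 columns per library, 24 in all, whose names differ by a suffix. The columns of a library differed less (median chi-square 2.48 to 2.77 times its expectation) than replicates did (4.91 to 6.3 times), and were summed. The number of columns with no library was 0.

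The rounded sums were tested with edgeR 4.0.16 (R 4.3.3). The low-count filter was filterByExpr, with 10 counts as its minimum and 15 as its minimum total. Libraries were scaled by TMM (factors 0.955 to 1.04) and fitted over all 12 libraries with 1 coefficient per group and no covariate, since replicate numbers did not meet the rule for pairing. Quasi-likelihood p-values were adjusted by Benjamini-Hochberg over 15419 genes. A gene was called at an adjusted p of at most 0.05, and counts at a fold of at least 1.5 are given too. The fit gives no interval itself. An SE was derived as the absolute log2 fold change divided by the square root of its quasi-likelihood F statistic. The 95% intervals are that SE times a t quantile with the test's degrees of freedom. This can fail for single genes: over all tested genes the farthest bound was 14200 on the log2 scale for the difference of the DHT responses, against 0.54 among the 49. Levels are TMM-scaled CPM, and log2 CPM used a prior count of 2. A library at or under 3 counts was taken as at the floor.

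TMEFF2 was named first. Of the 49 genes, each comparison named every called gene and the 3 highest and 3 lowest fold changes, each complex its highest and lowest level per length, and the set its largest and smallest replicate spread. Each other list named up to 3 called genes by p, or all where 5 or fewer were called, and PPARGC1A, NRF1, GABPA, ESRRA, TFAM, NDUFA4 and NDUFA4L2 were named whatever their values. YY1 and genes called by DESeq2 alone (NDUFS5, ATP5G1, ATP5O) were named after values were seen, as were the calls by DESeq2 alone of COQ3, COQ8B and PPRC1. The 49 genes, the other lists and the naming rule were chosen with earlier results of these data known. Alternatives were DESeq2 1.42.0, limma-voom (limma 3.58.1) on unrounded values, 2 other filters, 2 other scalings, a fit of the compared libraries only, a replicate block, either column alone and each library left out. Gene lengths and positions came from GENCODE v44, promoters from RefSeq. The scripts were tested on simulated counts. A marker and a motif that had been listed are not reported here.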

Additional observations from a re-analysis of the deposited data

Results flagged for a closer look

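Rows of genes encoded by mitochondrial DNA still held counts, although reads of mitochondrial DNA had been removed before quantification. Their share of a library ran from 0.0925% to 0.166% (918 to 1650 TMM-scaled CPM summed over 13 genes), and none of the 13 was called in any comparison, with no unadjusted p under 0.05 in edgeR's test. What these rows hold of the original signal is unknown, so the mitochondrial-encoded subunits of complexes I, III and IV were not compared with the nuclear ones.

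Rows of SDHA pseudogenes held counts equal to 23.6% of those of SDHA over the 12 libraries. Among the 28 subunits with a pseudogene row, 94 rows in all, only SDHA and NDUFV2 (5.66%) were above 1%. Whether these counts come from the pseudogenes or from the parent genes was not tested.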

How the results depend on the processing

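The 22 alternatives (21 for the difference of the DHT responses) recomputed 64 of the fold changes named above, and none of these changed sign. Not among the 64 were the differences of TMEFF2 and some other values given above, such as those of NDUFS5 and of NDUFC1, NDUFB10 and NDUFC2 with DHT in shTMEFF2. Of the values so made 1252 stayed on the same side of the threshold, 129 lost a call and 21 gained one. NDUFC1 and NDUFB10 with DHT in shScramble, and NDUFC1 between the lines with DHT, were called in all 22. NDUFC2 with DHT in shScramble and SDHD with DHT in shTMEFF2 were called in 16, and SDHA between the lines with DHT in 15. No alternative called a subunit at 1.5-fold or more in any comparison.

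For DHT in shScramble the 3 calls, all higher, became 5 with DESeq2 (4 higher and 1 lower). They became 6 with each of a mean over 5 CPM (3 higher and 3 lower), scaling by library size alone (2 and 4) and the replicate block (4 and 2). For DHT in shTMEFF2 the 1 call became 2 with DESeq2 and 0 with only the libraries compared or the second column alone. Between the lines without DHT DESeq2 made 1 call, against 0. With DHT the 2 calls became 1 with no filter or the second column alone and 4 with library size alone. Among the 45 assembly factors DESeq2 called 5 higher and 1 lower with DHT in shTMEFF2, against 1 and 0, and 2 higher and 4 lower between the lines with DHT, against 1 and 2. The cause was not tested. With library size alone the median log2 fold change of the 49 became -0.061 for DHT in shScramble, 0.068 between the lines with DHT and 0.046 for the difference of the DHT responses, where the median of all genes became -0.082, 0.062 and 0.074. Leaving out 1 library gave 2 to 4 calls for DHT in shScramble, 0 to 1 for DHT in shTMEFF2 and 1 to 3 between the lines with DHT, and 0 in the other comparisons. The medians then ran from -0.012 to 0.045, from -0.027 to 0.028, from -0.012 to 0.033 with DHT, from -0.012 to 0.042 without DHT and from -0.041 to 0.025 for the difference. Of the 40 named calls 20 held in all 22 alternatives, and 19 were lost in at least 1 fit with a library left out, as given beside each gene above.

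Replicate numbers were not used to pair the samples in the main fit. Deviations of same-numbered libraries correlated weakly, at -0.00172 to 0.169, above 0.1 in 3 of 12 pairs. All 12 libraries nevertheless correlated best with their own number, which is a hint from the data and not from the design. The main fit leaves out any effect shared by a replicate number. With the replicate block the calls among the 49 were 6, 1, 0, 3 and 0 in the 5 comparisons, and calls among all genes rose from 4157 to 4816 for DHT in shScramble and from 172 to 362 between the lines without DHT. Without SDHA and NDUFV2, an alternative chosen after seeing the data, no median moved by more than the spread between replicates (0.043). Leaving out so few genes can hardly move a median, so this does not show whether pseudogene counts affect the values of SDHA or NDUFV2. The depth leaves NDUFA3, the least abundant subunit, at 8.68 to 11.7 CPM, and the levels per length depend on the transcript length used.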
